A study of Mus musculus with 7 samples.

Results

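AP-1 is a family of paired transcription factors built from FOS proteins (Fos, Fosb, Fosl1, Fosl2), JUN proteins (Jun, Junb, Jund) and relatives of the ATF and BATF groups, here Atf3 and Batf. These 9 genes were listed by name, and the rule takes the brightest probe set of a gene. All 9 were named by exactly 1 probe set that names no other gene, out of 19938 genes named in this way, and all 9 lay above the low-signal filter, which kept 13938 genes. RNA was taken from long bone enriched for osteocytes, the cells embedded in bone matrix, of 39 to 41 week old males. The bone had been cleared of soft tissue and marrow, cut up, and passed through 4 rounds of collagenase digestion and EDTA extraction. There were 4 control mice, labelled wildtype and described as littermates, and 3 mice labelled DMP1 cre Mbtps1 knockout, with 1 Affymetrix whole-transcript array each. Mbtps1 encodes site-1 protease, which cleaves membrane-bound transcription factors in the Golgi. Dmp1-Cre is active mainly in osteocytes and late osteoblasts, and the gene's state in other cells of the pieces was not tested. Whether the controls carried Cre or floxed alleles is not given in the sources used here.

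FOS proteins cannot pair with themselves and bind DNA as dimers with a JUN protein, whereas JUN proteins can also pair with each other. Fos, Fosb, Jun and Atf3 are classic early response genes: their transcripts are short-lived and are made within minutes of growth factors, mechanical load, stress or tissue dissociation. Jund transcript is kept at a steadier level in many cells, and Fosl2 and Fosb products are known regulators of bone formation.

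The promoters of the inducible members, which varied together over the arrays, are shown with that of Jund, a member with a small difference, because several are classic targets of CREB, ATF and AP-1 factors themselves. RefSeq promoter windows of GRCm38.p6 matched 8 of the 9 members, and the entry missing is that of Fosl1. Each window is 300 bases, 250 before and 50 from the annotated start, which is position 0, written 5′ to 3′ along the gene. Capitals mark TGACG, the cAMP response element (CRE) half-site, on either strand, or TGACATCA, the JUN-type AP-1 site. Fos lies at chr12:85473640-85473939, plus strand. Fosb lies at chr7:19309996-19310295, minus strand. Jun lies at chr4:95052173-95052472, minus strand. Atf3 lies at chr1:191183284-191183583, minus strand. Jund lies at chr8:70697489-70697788, plus strand.
Fos: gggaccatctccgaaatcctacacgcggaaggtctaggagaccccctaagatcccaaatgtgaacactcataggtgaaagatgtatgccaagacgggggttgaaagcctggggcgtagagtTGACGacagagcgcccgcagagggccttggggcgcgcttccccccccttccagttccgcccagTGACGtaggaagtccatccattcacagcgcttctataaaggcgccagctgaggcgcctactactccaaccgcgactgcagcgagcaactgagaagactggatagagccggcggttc
Fosb: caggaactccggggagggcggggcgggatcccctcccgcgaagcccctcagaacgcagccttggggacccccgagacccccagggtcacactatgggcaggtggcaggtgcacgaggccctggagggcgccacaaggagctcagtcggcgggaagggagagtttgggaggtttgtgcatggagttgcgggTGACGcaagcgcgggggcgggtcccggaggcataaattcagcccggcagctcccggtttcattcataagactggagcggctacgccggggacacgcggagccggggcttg
Jun: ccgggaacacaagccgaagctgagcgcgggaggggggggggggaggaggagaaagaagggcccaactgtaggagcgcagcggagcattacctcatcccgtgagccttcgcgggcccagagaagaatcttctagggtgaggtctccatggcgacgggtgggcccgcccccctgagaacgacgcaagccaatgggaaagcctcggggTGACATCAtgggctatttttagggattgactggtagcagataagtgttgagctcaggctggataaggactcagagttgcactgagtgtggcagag
Atf3: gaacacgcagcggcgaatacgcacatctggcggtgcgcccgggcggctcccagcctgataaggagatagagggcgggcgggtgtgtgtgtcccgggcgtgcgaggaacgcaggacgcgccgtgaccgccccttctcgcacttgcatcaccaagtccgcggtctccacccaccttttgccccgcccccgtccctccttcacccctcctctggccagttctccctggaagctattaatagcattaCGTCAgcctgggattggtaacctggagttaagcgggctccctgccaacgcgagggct
Jund: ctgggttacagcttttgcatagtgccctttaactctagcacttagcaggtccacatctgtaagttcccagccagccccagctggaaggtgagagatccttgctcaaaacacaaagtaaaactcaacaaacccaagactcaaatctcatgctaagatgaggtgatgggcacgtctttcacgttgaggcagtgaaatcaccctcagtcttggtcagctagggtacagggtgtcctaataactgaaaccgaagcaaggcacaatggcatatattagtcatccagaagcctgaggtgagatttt

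TGACG was present in the windows of 5 of the 8 members (Fos, Fosb, Junb, Atf3 and Batf), against 20.8% of all 32851 promoter windows of this length in the table, searched on both strands. Fos held it at positions -129 and -66, Fosb at -60, Junb at -106 and Batf at -98, and Atf3 held its reverse complement at -7. TGACATCA was found in the Jun window alone among the 8, at position -45, and in 3.62% of all windows. The full CRE TGACGTCA, of which TGACG is a part, the TPA response element (TGACTCA or TGAGTCA) and the CArG box bound by serum response factor matched no member window, against 1.79%, 5.20% and 1.63% of all windows. The Fosl2 and Jund windows held none of these motifs. These matches describe letters in a short window and do not show binding. Sequence outside the window was not searched, so a window without a match does not mean that the gene lacks the motif. The motif shared by most, TGACG, was found in both an inducible member such as Fosb and a steadier one, Batf.

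The first question was which members differ between knockout and control bone. Probe set intensities are on a linear scale and are given with their SD (n = 4 controls and n = 3 knockouts). A log2 fold change is the knockout minus the control value of log2(intensity + 16), with its standard error (SE) from limma. On this scale the change of low genes is understated. Levels of different genes are not compared, since probe sets differ in how strongly they bind. No gene in the series passed a Benjamini-Hochberg adjusted p of 0.05 (0% of 13938 called), and so no member did. That count of 0, beside 904 genes at an unadjusted limma p under 0.05, was 6 without control 4 and 1 without knockout 2, and no member was among them. At an unadjusted limma p under 0.05, 5 of the 9 members were lower and 0 higher, beside 2.71% of all genes lower, 3.77% higher and 6.49% in either direction. The median log2 fold change was -0.51 over the 9 members and 0.07 over all genes. In 3 members every knockout lay below every control, beside 2.76% of all genes lower in this way and 7.99% in either direction.

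**Figure D1:**
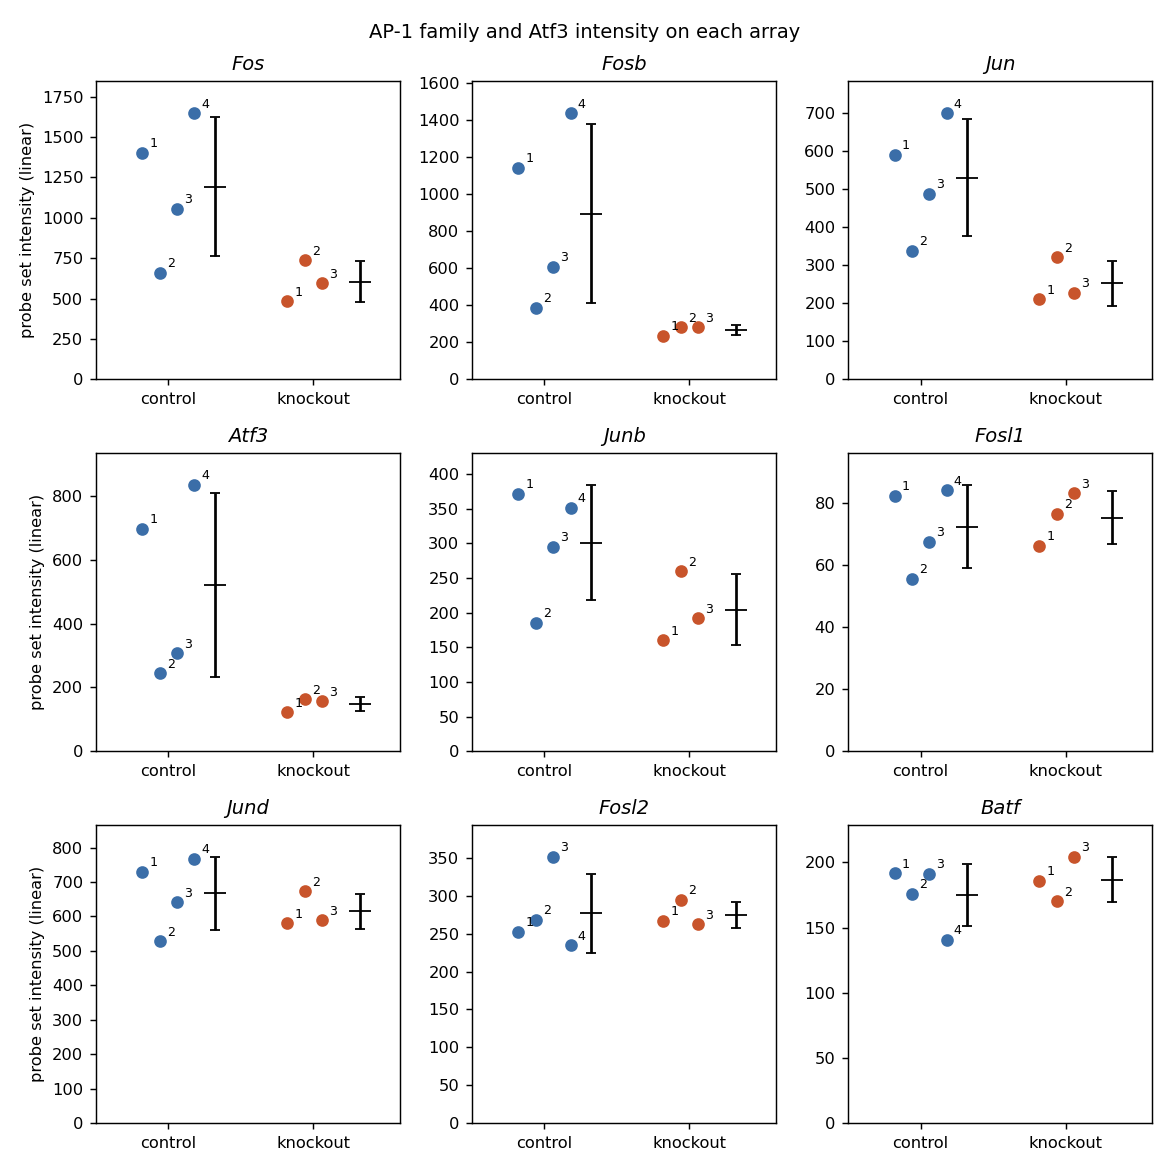
Probe set intensity (linear scale from 0) of each AP-1 gene and Atf3 on the 4 control (blue) and 3 knockout (orange) arrays, with replicate numbers beside the points and the mean ± SD as a bar. Fosb, Jun and Atf3 have no knockout inside the control range, and the ratio of the highest to the lowest control is largest for Fosb (3.71) and Atf3 (3.41).

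Atf3, a stress-induced factor that can repress or activate its targets, had the lowest log2 fold change of all 13938 genes. It read 698, 245, 308 and 837 in controls 1 to 4 and 122, 163 and 157 in knockouts 1 to 3. Controls 1 and 4 stood far above controls 2 and 3, and the knockouts lay together below all 4. The means were 522 ± 290 in controls and 147 ± 21.9 in knockouts. The log2 fold change was -1.55 (SE 0.34, limma Benjamini-Hochberg adjusted p = 0.559). With each array left out it ran from -1.84 to -1.27.

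Fosb, the FOS protein whose splice forms are known to raise bone mass in mice, came next of all genes by log2 fold change. It read 1141, 387, 607 and 1436 in controls 1 to 4 and 236, 281 and 282 in knockouts 1 to 3. The arrays fell in almost the order of Atf3, with control 2 the nearest to the knockouts. The means were 893 ± 481 and 266 ± 26.5. The log2 fold change was -1.52 (SE 0.34, adjusted p = 0.559), or -1.85 to -1.23 with each array left out. The highest control was 3.71 times the lowest, and the highest knockout 1.20 times the lowest.

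Jun, the founding JUN protein, read 591, 339, 488 and 701 in controls 1 to 4 and 211, 321 and 227 in knockouts 1 to 3. The groups did not overlap, but control 2 and knockout 2 were close. The means were 530 ± 154 and 253 ± 59.1. The log2 fold change was -0.99 (SE 0.22, adjusted p = 0.559), with a range of -1.19 to -0.85 when each array was left out. For Atf3, Fosb and Jun alike, the two-sided exact permutation p over the 35 arrangements of 7 arrays was 0.0571, where the smallest possible p is 0.0286.

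Fos, the partner of JUN in the classic AP-1 dimer, read 1402, 660, 1056 and 1649 in controls 1 to 4 and 485, 738 and 593 in knockouts 1 to 3. Here the groups overlapped, because knockout 2 lay above control 2. The means were 1192 ± 430 and 605 ± 127. The log2 fold change was -0.90 (SE 0.26, limma adjusted p = 0.619), and the exact permutation test gave p = 0.0857 (two-sided). It was -1.15 without control 2 and -0.72 without control 4, the ends of its range with each array left out.

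Junb, a JUN protein that is also an early response gene, read 372, 186, 295 and 352 in controls 1 to 4 and 160, 260 and 192 in knockouts 1 to 3. Control 2 lay among the knockouts. The log2 fold change was -0.51 (SE 0.22, limma adjusted p = 0.765), and the exact permutation test gave p = 0.143 (two-sided). Junb no longer had an unadjusted p under 0.05 without control 1 (log2 fold change -0.40), control 4 (-0.42), knockout 1 (-0.36) or knockout 3 (-0.48), nor with array weights (-0.38).

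**Figure D2:**
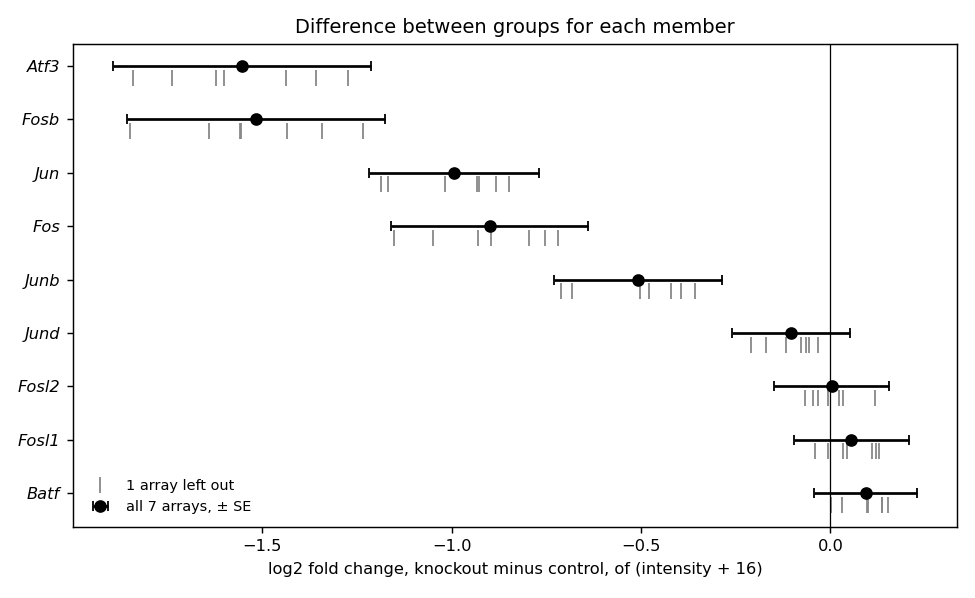
Log2 fold change (knockout minus control, of intensity + 16) of each member with all 7 arrays (point, bar ± SE) and with each array left out (grey ticks). The values run from -1.55 (Atf3) to 0.09 (Batf), and every tick of Atf3, Fosb, Jun, Fos and Junb lies below 0.

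The remaining 4 members had no unadjusted p under 0.05 with any array left out. Jund, the JUN protein that is present in most resting cells, read 730, 527, 642 and 768 in controls 1 to 4 and 580, 674 and 590 in knockouts 1 to 3. All 3 knockouts lay inside the control range (log2 fold change -0.10, SE 0.16, limma adjusted p = 0.910). Fosl2 encodes FRA2, which acts in osteoblasts and osteoclasts. It read 252, 268, 352 and 235 in controls 1 to 4 and 267, 295 and 262 in knockouts 1 to 3. Control 3 was the highest array, and the difference was 0.0035 (SE 0.15). Its sign turned with quantile normalization, median centring or the replicate block, and without control 1, 2 or 4 or knockout 2.

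Batf, which pairs with JUN proteins in lymphocytes, read 192, 176, 191 and 141 in controls 1 to 4 and 186, 170 and 205 in knockouts 1 to 3, with control 4 the lowest array. Its log2 fold change was 0.09 (SE 0.14, limma adjusted p = 0.907). Fosl1, which encodes FRA1, read 82.2, 55.5, 67.4 and 84.1 in controls 1 to 4 and 66.1, 76.4 and 83.1 in knockouts 1 to 3. These values lie on both sides of the low-signal filter, an intensity of 69.7, so Fosl1 signal was near the limit of what was kept. Its log2 fold change was 0.06 (SE 0.15, limma adjusted p = 0.954), and it turned below 0 with median centring or without control 2 or knockout 3.

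Next, the inducible members (Fos, Fosb, Jun and Atf3) were set against the steadier ones (Jund, Fosl2 and Batf). Junb, also an early response gene (log2 fold change -0.51), and Fosl1 (0.06) were in neither class. The mean log2 value of the inducible members minus that of the steadier ones was 1.41, 0.36, 0.64 and 1.81 in controls 1 to 4 and -0.37, -0.0041 and -0.17 in knockouts 1 to 3. Every knockout lay below every control, and controls 4 and 1 were the highest. The difference between the groups was -1.24, from a control mean of 1.06 ± 0.67 to a knockout mean of -0.18 ± 0.18 (SD). The steadier members hardly moved in this comparison: their own mean log2 value was 8.383 ± 0.12 in controls and 8.380 ± 0.038 in knockouts. No p-value is given, as the classes were named with earlier results of these data known. With each array left out the difference ran from -1.47 to -0.99.

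The inducible members also differed more among the controls than most genes did. The SD of log2 values over the 4 controls was 0.84 for Fosb and 0.84 for Atf3, 0.57 for Fos and 0.44 for Jun, at the 99.8, 99.7, 98.3 and 94.0 percentiles of the 13938 genes. For Jund, Fosl2 and Batf it was 0.24, 0.24 and 0.19, at the 57.2, 59.3 and 39.9 percentiles. Junb stood at 0.43, close to Jun. A wide spread was not particular to these members. The early response gene Egr1 stood at the 98.7 percentile, and the osteocyte markers Dkk1 and Dmp1 at 99.8 and 99.4. Others on the same lists were narrower, such as Klf4 at 64.2 and Gja1 at 67.5.

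**Figure D3:**
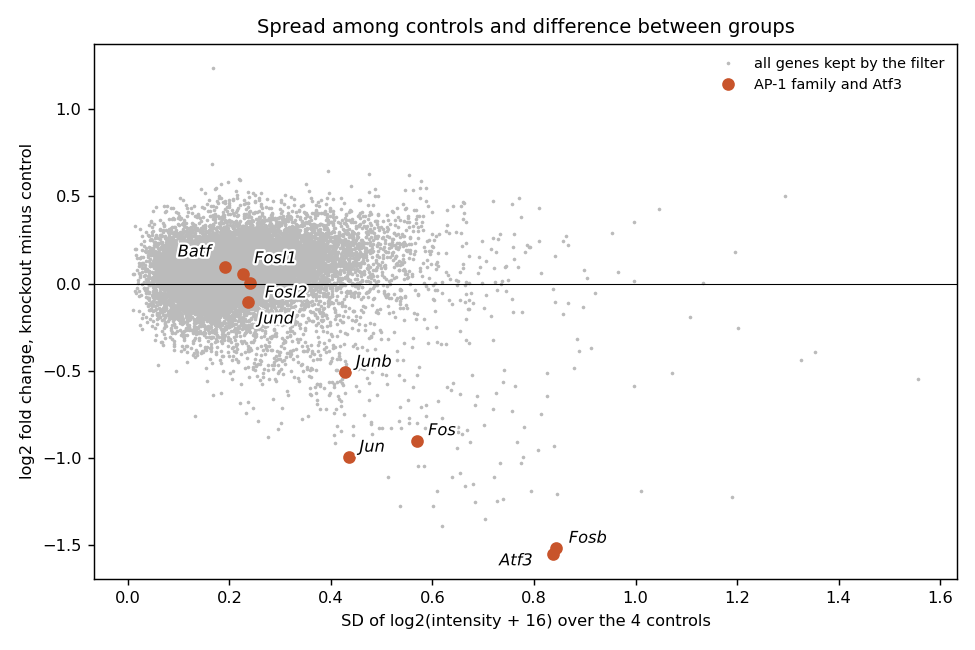
Each gene above the filter (grey) and the 9 members (orange), by the SD of log2(intensity + 16) over the 4 controls and the log2 fold change, knockout minus control. Fosb and Atf3 lie at an SD of 0.84 with the lowest fold changes of all genes, whereas Jund, Fosl2, Batf and Fosl1 lie within the bulk.

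The order of the arrays was shared. Control 4 was the highest array in 4 of 4 inducible members, control 2 the lowest control in 4 of 4, and knockout 1 the lowest array in 4 of 4. Jun and Atf3 gave the same order of all 7 arrays: controls 4, 1, 3 and 2, then knockouts 2, 3 and 1. Fosb differed only in that knockout 3 (282) read fractionally above knockout 2 (281), and Fos in that knockout 2 read above control 2. Jund, whose groups overlapped, also had control 4 and control 1 as its highest arrays and control 2 as its lowest. Over the 9 members, knockout 1 was the lowest knockout in 7 and control 2 the lowest control in 7.

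Genes outside the family with the most similar pattern were found by Pearson correlation of log2 values over the 7 arrays, given as a description. The groups themselves differ, which raises such values, so each is followed by the correlation after group means were removed. The genes were picked as the highest of all genes on these same arrays. High values of both kinds therefore follow in part from that choice. For Fos they were Fam78b (0.992 and 0.982), Egr1 (0.990 and 0.994), Ier3 (0.985 and 0.968) and Wnt10b (0.983 and 0.964). For Fosb they were Wnt10b (0.996 and 0.992), Cltb (0.992 and 0.980), Ldlrad4 (0.989 and 0.969) and Egr2 (0.987 and 0.965). For Jun they were Egr1 (0.993 and 0.979), Tnc (0.987 and 0.969), Klf4 (0.984 and 0.952) and Fam78b (0.983 and 0.983). For Atf3 they were Egr2 (0.992 and 0.980), Wnt10b (0.992 and 0.980), Plekhg1 (0.987 and 0.980) and Cltb (0.986 and 0.962). Wnt10b, a Wnt ligand that promotes bone formation, was thus among the nearest to Fos, Fosb and Atf3, although its own difference was small. It read 139, 107, 121 and 150 in controls 1 to 4 and 93.8, 102 and 102 in knockouts 1 to 3 (log2 fold change -0.33, SE 0.13, limma adjusted p = 0.743).

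Other early response genes, which share signals with the AP-1 members but belong to other families, were examined as a list. Of 22 measured, 10 were lower and 0 higher at an unadjusted limma p under 0.05, with a median log2 fold change of -0.42. Over all genes, 2.71% were lower and 3.77% higher at this p. The zinc finger factor Egr1 read 976, 449, 689 and 1184 in controls 1 to 4 and 232, 409 and 314 in knockouts 1 to 3 (log2 fold change -1.27, SE 0.28). Its order of arrays was that of Jun. Egr2 (-1.11, SE 0.24), Klf4 (-0.79, SE 0.16) and Klf2 (-0.49, SE 0.16), all transcription factors, also had groups that did not overlap. Myc (0.09) and Nfkbia (0.04), also early response genes, were the 2 list members above 0. The count of 10 was 6 without knockout 3 and 5 with unmoderated variances. The count over all genes in either direction, 904, became 436 and 862 in the same settings.

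Other basic leucine zipper factors, of which several can pair with the members, were listed too. The median log2 fold change of the 14 measured was 0.02. At an unadjusted limma p under 0.05, 0 were lower and 1 was higher, beside 2.71% and 3.77% of all genes. The higher gene was Mafg, a small MAF protein. It read 318, 338, 368 and 297 in controls 1 to 4 and 437, 420 and 381 in knockouts 1 to 3. Every knockout lay above every control (log2 fold change 0.31, SE 0.14, limma adjusted p = 0.765), but its unadjusted p was not under 0.05 after median centring or with the replicate block, nor without control 1, control 2 or any 1 of the knockouts. Without control 3, 2 of the 14 were higher, while the count over all genes in either direction rose from 904 to 1412. Mafk (0.32), Cebpd (-0.19), Batf3 (0.14), Atf4 (0.07) and Jdp2 (-0.06) had unadjusted p-values above 0.05. For Mafk too, every knockout lay above every control.

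The MAP kinases and the factors through which they switch on FOS and JUN genes were measured for 16 of 20 listed genes. At an unadjusted limma p under 0.05, 0 were lower and 0 higher, beside 2.71% and 3.77% of all genes. The median log2 fold change of the 16 was 0.02. The smallest p-values were those of Map2k2 (0.29, SE 0.14), Srf (0.26, SE 0.16), Map2k3 (0.27, SE 0.19) and Elk1 (0.14, SE 0.12). Srf encodes serum response factor, which binds the CArG box, and Elk1 its partner. These transcript levels do not measure kinase activity or phosphorylation. Without control 3, 3 of the 16 were higher, while the count over all genes in either direction was 1412, against 904 with all arrays.

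Known AP-1 target genes were measured for 14 of 20, with a median log2 fold change of -0.12. At an unadjusted limma p under 0.05, 2 were lower and 0 higher, beside 2.71% and 3.77% of all genes. The matrix proteoglycan gene Dcn read 1168, 1007, 1718 and 1943 in controls 1 to 4 and 818, 923 and 657 in knockouts 1 to 3 (log2 fold change -0.82, SE 0.21). Gja1, a gap junction gene that is also on the osteocyte list, had a log2 fold change of -0.53 (SE 0.16). Dcn and Gja1 were the 2 lower genes, and both had groups that did not overlap. This list, like the others, was chosen with earlier results of these data known, so its counts are a description only. The collagenase gene Mmp13 read 1000, 654, 1123 and 1400 in controls 1 to 4 but 584, 1345 and 460 in knockouts 1 to 3, so knockout 2 read like the controls (log2 fold change -0.49, SE 0.32). Ptgs2 (-0.43, SE 0.24) and Ccl2 (0.30, SE 0.15) had limma adjusted p-values of 0.804 and 0.793. Without knockout 2, 5 of the 14 were lower, while the count over all genes in either direction fell from 904 to 711.

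Cell type markers were read on the same arrays, since the pieces held several cell types. In such bulk RNA, fewer cells of a type and less RNA per cell cannot be told apart. Osteocyte markers were measured for 12 of 12 genes, and 8 were lower and 1 higher at an unadjusted p under 0.05 (median log2 fold change -1.03). Over all genes, 2.71% were lower and 3.77% higher. The count of lower markers was 8 with each array left out. The count of higher ones was 2 without control 4, and 0 without control 1, control 2 or any 1 of the knockouts and with median centring or quantile normalization. Their mean log2 value was 8.61, 8.34, 8.41 and 9.30 in controls 1 to 4 and 7.82, 8.12 and 7.95 in knockouts 1 to 3. The mean of the inducible members was 9.84, 8.64, 9.17 and 10.1 in controls 1 to 4 and 7.97, 8.41 and 8.21 in knockouts 1 to 3. Both gave 1 order of the 7 arrays, control 4 first and knockout 1 last. Control 1 stood 0.68 above control 3 in the inducible members and 0.20 above it in the osteocyte markers. Single osteocyte markers differed in this: in controls 1 and 3, Dkk1 read 723 and 345, and Ptprz1 152 and 177.

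**Figure D4:**
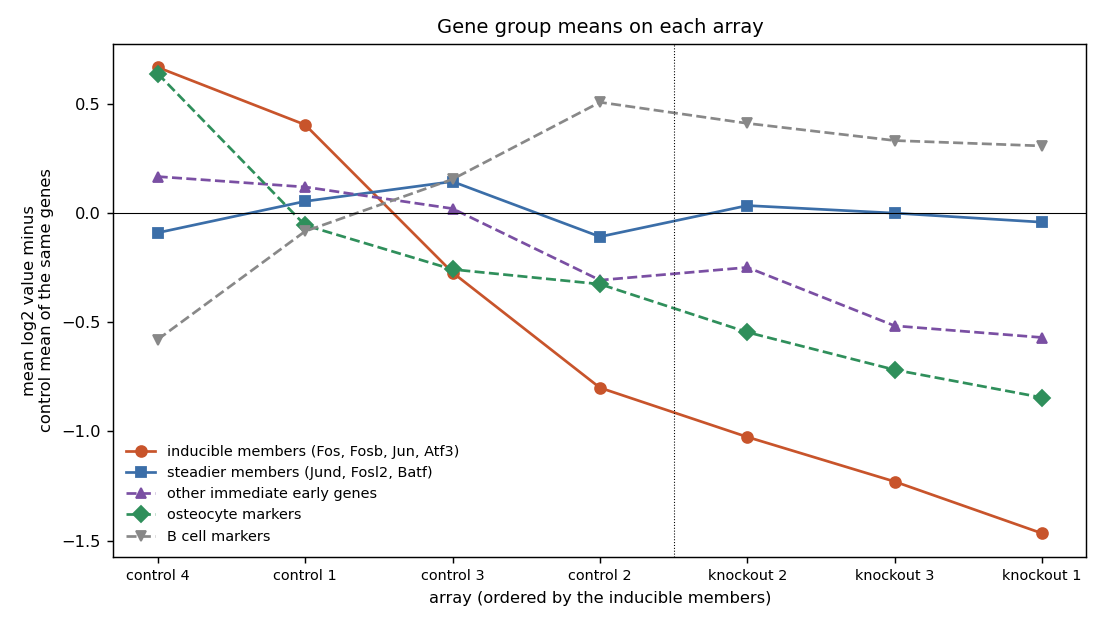
Mean log2 value of 5 gene groups on each array minus the control mean of the same genes, with arrays ordered by the inducible members and controls left of the dotted line; the lines only join points of a group. The inducible members and the osteocyte markers run from control 4 down to knockout 1, the steadier members stay near 0, and B cell markers are lowest in control 4.

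B cell markers (9 of 10 measured, 0 lower and 2 higher) had mean log2 values of 7.77 to 8.85 in controls, lowest in control 4, and 8.65 to 8.76 in knockouts, and 7 were higher without control 2, 1 without knockout 1 and 0 without knockout 2. Neutrophil markers were high on all arrays, at 11.6 to 11.8 in controls and 11.6 to 11.8 in knockouts (10 measured, 2 lower and 0 higher, with 0 lower when control 1, 2 or 3 or knockout 1 or 3 was left out). Osteoblast markers lay at 8.99 to 9.75 in controls and 8.80 to 9.25 in knockouts (9 of 12 measured, 4 lower and 0 higher, 1 lower without knockout 3 and 2 without knockout 1), and endothelial and adipocyte markers at 7.89 to 8.48 and 7.87 to 7.94 (10 measured, 3 lower and 0 higher, 6 lower without control 4 and 1 without knockout 1). T and NK cell (7 measured), erythroid (7) and muscle markers (7) had 0 lower and 0 higher. The exceptions were 2 muscle markers higher without control 4, without controls 3 and 4, with array weights and with the replicate block. Of the erythroid markers, 7 had a log2 fold change above 0 and 0 below, and of the T and NK cell markers 5 and 2. Like the B cell markers, both lists had their lowest mean log2 value in control 4 (erythroid 9.33, T and NK cell 6.89). Their highest was in control 3 (10.28 and 7.29). Macrophage and osteoclast markers (10) had 0 lower and 1 higher, with 0 higher without control 1, control 2 or knockout 1 and 1 lower without control 4. The part of these cell types in the difference of the inducible members was not tested. The counts are at an unadjusted limma p under 0.05, where 2.71% of all genes were lower and 3.77% higher. Of all genes, 904 were under it, 752 without control 2, 1826 without control 4, 323 without knockout 1 and 436 without knockout 3. It was 749 without control 1, 1412 without control 3 and 711 without knockout 2. The array medians, 87.3 to 108 in controls and 101 to 105 in knockouts, overlapped between the groups. On the first principal component of all genes, control 4 (38.0) and control 3 (-25.6) lay at the ends. Without both, Atf3 (-1.41), Fosb (-1.28), Jun (-0.81) and Fos (-0.68) still had an unadjusted limma p under 0.05, and Junb (-0.37) did not.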

How the data were processed

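Gene expression of 7 arrays was analysed, 4 controls and 3 knockouts grouped by their labels. The authors deposited 1 linear intensity per probe set and array. The submitters' processing notes list PLIER and Expression Console 1.4. Each array used 30 ng of RNA, per the labels' protocols. How background was corrected and arrays were normalized, and the genome build, are not stated in the sources used here. Genes were named through the platform annotation, using the 21789 probe sets of 35556 that name 1 gene. Intensities were transformed as log2(intensity + 16). Genes under the 30th percentile of the probe set means (intensity 69.7) were left out. The groups were compared in limma 3.58.1 (R 4.3.3) with a variance trend over all genes, with Benjamini-Hochberg adjustment and 5 residual degrees of freedom (12.6 in total). The fit was tested on simulated data. Nothing says which mice shared a litter, and precision is limited by the number of arrays. The members and lists were chosen with earlier results of these data known. Named are the 9 members and the 4 genes most like each inducible member. So are genes of smallest p in each list other than the cell type markers. Further list members were named after their values were seen. Offsets, filters, normalizations, variance models, array weights, a replicate block and leaving out arrays were tried. Unmoderated variances and leaving out controls 3 and 4 together were added after seeing the data. Figures used matplotlib 3.10.9.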

Additional observations from a re-analysis of the deposited data

How the results depend on the processing

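Over 20 alternatives, Atf3, Fosb and Jun were lower at an unadjusted limma p under 0.05 in 20, Fos in 19 and Junb in 13. The count of members was 3 with unmoderated variances, where Fos and Junb were lost, and 4 to 5 with each array left out. Members without overlap numbered 3 to 5 with each array left out, 5 without control 2. With fewer arrays, groups of any gene separate more easily. The share of all genes was not counted in these settings, so the rise cannot be read as a result about the members. The difference between inducible and steadier members ran from -1.47 to -0.99 over all alternatives. Over all genes, 904 had an unadjusted p under 0.05, against 1867 with array weights, 1655 with the replicate block, 1503 without controls 3 and 4, and 323 to 1826 with each array left out (1412 without control 3, 1826 without control 4, 323 without knockout 1, 436 without knockout 3). The cause was not tested. Signs turned for Fosl2 with quantile normalization (-0.0088), median centring (-0.055), the replicate block (-0.066), and without control 1 (-0.033), control 2 (-0.0052), control 4 (-0.066) or knockout 2 (-0.045), and for Fosl1 with median centring (-0.0034) and without control 2 (-0.042) or knockout 3 (-0.0064). They also turned for Lyz2 with quantile normalization (0.017) and for Cd3g without controls 3 and 4 (-0.015). With each array left out Fosl1 ran from -0.042 to 0.13 and Fosl2 from -0.066 to 0.12. At the 50th percentile filter Fosl1 was not tested.

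The labels do not say whether a replicate number pairs a control with a knockout, so the main fit has no block. Deviations from the group means correlated at 0.068, 0.15 and -0.53 for numbers 1 to 3. These 3 values cannot show whether the mice were paired. With the number as a block, control 4 has no partner and drops out. Then 62 genes passed the adjusted threshold, against 0 as reported, 6 without control 4, 5 with array weights, 2 without controls 3 and 4, and 1 each with median centring, a robust trend or without knockout 2. Among the 62 were Atf3 (log2 fold change -1.27, adjusted p = 0.0046), Fosb (-1.23, 0.0042) and Jun (-0.85, 0.031). Over all alternatives the adjusted p ran from 0.0046 to 1 for Atf3, 0.0042 to 1 for Fosb and 0.031 to 1 for Jun, and in no other alternative was it under 0.05 for a member.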
